A study of Mus musculus with 3 samples.

Results

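Vascular smooth muscle cells (VSMC) with *Myh11* were 977 of the 33663 barcodes that passed filtering in single-cell RNA sequencing (scRNA-seq) of the inguinal stromal vascular fraction (SVF), the non-adipocyte cells of subcutaneous fat. A barcode passed with at least 1000 unique molecular identifiers (UMIs, counted transcripts) and at most 10% of them in mitochondrial genes. A VSMC had at least 2 UMIs of *Myh11*, at least 5 of *Acta2* and at least 5 of *Tagln*, none of *Pdgfra*, *Epcam* or *Pecam1*, and at most 1 of *Krt14*. The members were thus chosen by their measured UMI counts of these 7 genes, whose levels are given below as a description only.

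The mice were 4 weeks old, and each library pooled cells from several male and female mice. The wild-type library came from mice with intact *Mgp*, the *Mgp*-KO library from mice that lack *Mgp* in every cell, and the *Pd*-KO library from *Mgp* flox/flox mice that carry a *Pdgfra*-Cre transgene, in which the deletion follows the activity of the *Pdgfra* promoter. The collagenase digest had been cleared of dead cells and of CD45-positive immune cells by sorting. There was 1 library per genotype, so no test over replicates was possible, and the intervals (95%) cover counting error only. Both knockouts were set against the same wild-type library, and no floxed mice without Cre were analysed here.

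VSMC form the contractile wall of arteries, arterioles and veins. Their shortening rests on smooth muscle myosin and actin, on the kinase and phosphatase that act on the myosin light chain, and on calcium entry, and many of the genes of this apparatus are driven by serum response factor (SRF) with its cofactor myocardin at CArG boxes. Pericytes are the related mural cells of capillaries, and matrix Gla protein, the product of *Mgp*, is a secreted inhibitor of calcification and of BMP signaling that arterial VSMC are known to make.

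The VSMC numbered 635 in the wild-type library, 131 in the *Mgp*-KO library and 211 in the *Pd*-KO library. Their median depth was 6512 UMIs in wild-type, 2920 in *Mgp*-KO and 3890 in *Pd*-KO, against 12084.5, 6290.5 and 8015 UMIs over all filtered barcodes of those libraries. Summed over cells, the VSMC held 4504702, 458166 and 874380 UMIs, so the *Mgp*-KO values below are the least precise. No barcode sequence was shared between the VSMC of any pair of libraries. Each level below is in CPM (scaled counts), the UMIs of a gene per 1000000 UMIs of the summed cells of that type in that library, and is not scaled to gene length, so levels are not compared between genes.

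The exclusions of the gate weighed differently on the libraries. The 3 muscle genes alone were met by 983 wild-type, 292 *Mgp*-KO and 271 *Pd*-KO barcodes. Of these, 348, 161 and 60 were then left out, most often for *Pdgfra* in wild-type (246 barcodes) and *Pd*-KO (38 barcodes) and for *Krt14* in *Mgp*-KO (127 barcodes). The barcodes left out were deeper than those kept, with median depths of 10935, 6516 and 9758 UMIs. At the edge of the gate, 31 wild-type, 15 *Mgp*-KO and 15 *Pd*-KO members had exactly 2 *Myh11* UMIs, and 29, 15 and 9 barcodes met every other limit with a single one.

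The name was checked against genes that the gate did not use. *Tpm2*, a tropomyosin of smooth muscle, had a UMI in 99.8% of wild-type members and in 100.0% of those of either knockout, with a median of 22, 14 and 13 UMIs per cell. *Mylk*, the myosin light chain kinase, was found in 98.0%, 91.6% and 97.6%, and *Lmod1*, an actin nucleator of smooth muscle, in 90.6%, 75.6% and 80.6%. *Tpm2* and *Mylk* thus stood in over 90% of the members of each library, whereas *Lmod1* did so in wild-type alone, and detection of *Mylk* and *Lmod1* was lowest in the shallowest library. Markers of myoepithelial, endothelial and immune cells were low. The 6 basal and myoepithelial markers summed to 2.22 CPM in wild-type, 30.6 CPM in *Mgp*-KO and 25.2 CPM in *Pd*-KO VSMC, against 4988, 5321 and 4234 CPM in myoepithelial cells. The 8 endothelial markers summed to 51.1, 26.2 and 67.5 CPM, against 6258, 6733 and 8090 CPM in endothelial cells, with *Pecam1* at 0 by the gate. The 5 leukocyte markers summed to 4.44, 10.9 and 0 CPM. Pericyte genes were not low. The 24 genes of the pericyte list, *Rgs5* among them, summed to 7079, 5900 and 12385 CPM in VSMC. In the pericytes of these libraries, defined below, they summed to 10644, 13901 and 18727 CPM.

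Transcripts of fibroblasts and fat were present at higher levels. The 8 fibroblast markers summed to 4890, 4915 and 3215 CPM in VSMC, led by *Col3a1* at 2535, 1921 and 1674 CPM, with *Pdgfra* at 0 by the gate. In *Pdgfra*-positive cells the same list summed to 56036, 48024 and 71634 CPM, and in free RNA, taken from barcodes of 10 to 100 UMIs, to 18255, 35343 and 68703 CPM. *Fabp4*, a fatty acid carrier of adipocytes and capillary endothelium, reached 14753 CPM in wild-type, 6618 CPM in *Mgp*-KO and 7671 CPM in *Pd*-KO VSMC, above its level in free RNA (2402, 3816 and 3458 CPM). *Adipoq*, which marks adipocytes, was at 26.4, 4.37 and 0 CPM. The part of free RNA in these levels was not tested.

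The share of VSMC among filtered barcodes was 5.59% in wild-type (5.18 to 6.03), 1.00% in *Mgp*-KO (0.838 to 1.19) and 2.29% in *Pd*-KO (1.99 to 2.61). The 3 intervals did not overlap. After every barcode was thinned to 3000 UMIs, with shallower ones left out, the shares were 6.03%, 0.589% and 1.97%, in the same order. With a minimum of 500 UMIs, which adds 23526 wild-type barcodes, the order of wild-type and *Pd*-KO turned, at 1.82% (1.69 to 1.97), 0.991% and 2.25% (1.96 to 2.57), with wild-type and *Pd*-KO intervals that overlapped. Pericytes, taken with the same exclusions as barcodes with at least 5 *Rgs5* and at most 1 *Myh11* UMI, were 56, 17 and 119 barcodes, or 0.493%, 0.130% and 1.29%. There were 11.3 VSMC per pericyte in wild-type (8.62 to 15.2), 7.71 in *Mgp*-KO (4.63 to 13.6) and 1.77 in *Pd*-KO (1.41 to 2.24), and the *Pd*-KO interval lay below both others. Thinned to 3000 UMIs, pericytes were 0.939% in wild-type (0.760 to 1.15), 0.0854% in *Mgp*-KO and 1.13% in *Pd*-KO (0.915 to 1.39), and the wild-type and *Pd*-KO intervals overlapped. The sort, the digestion and the depth gap between libraries can all set such shares, and their part in the differences was not tested.

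**Figure D1:**
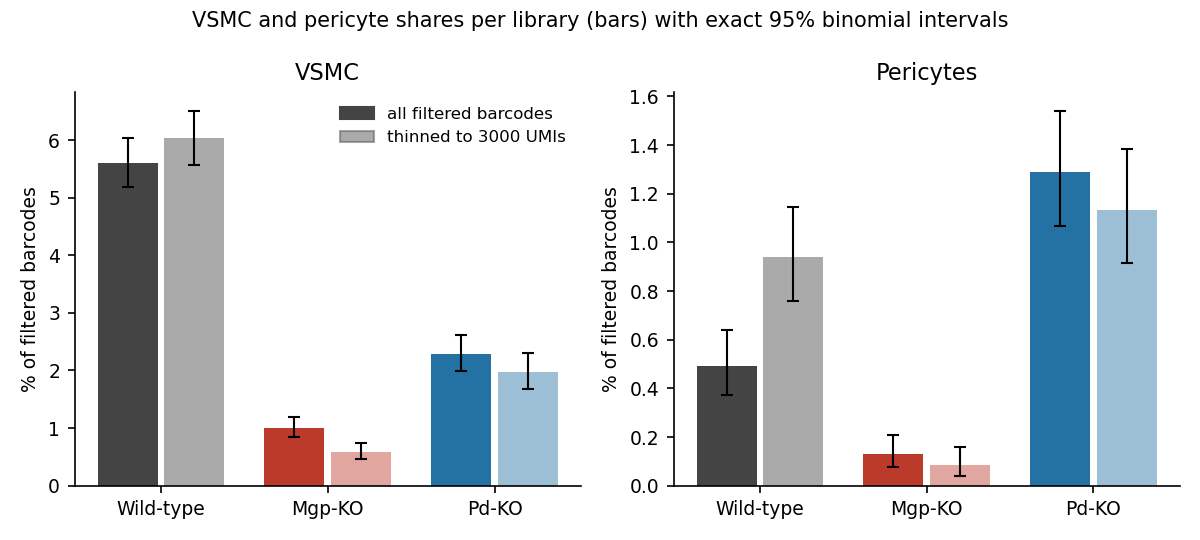
Share of VSMC (left) and of pericytes (right) among filtered barcodes, in percent, for each library, with exact 95% binomial intervals; dark bars hold all filtered barcodes and pale bars those thinned to 3000 UMIs. The wild-type VSMC bars stand highest at 5.59% and 6.03%, whereas the pericyte bars of wild-type and *Pd*-KO move from 0.493% and 1.29% to 0.939% and 1.13% with thinning.

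Muscle genes that the gate did not use differed in how they were spread over the VSMC. *Cnn1*, the actin-binding protein calponin, had a UMI in 21.1% of wild-type members, against 33.6% in *Mgp*-KO and 8.5% in *Pd*-KO. The 10% of cells with most *Cnn1* held 84.8% of its wild-type UMIs. *Actg2*, the gamma actin of smooth muscle, was found in 18.7%, 16.8% and 7.6%, and 89.6% of its wild-type UMIs lay in the top 10% of cells. *Tpm2*, a tropomyosin, had 34.5% of its wild-type UMIs in the top 10% of cells, with a median of 22 UMIs per cell in wild-type, 14 in *Mgp*-KO and 13 in *Pd*-KO. *Des*, the intermediate filament desmin, had 33.0% there and was found in 86.8% of wild-type members. *Eln*, the elastin gene, was found in 75.1%, 56.5% and 65.9% of members and was intermediate, with 55.0% of its wild-type UMIs in the top 10%.

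VSMC were next described against the pericytes of the same library, both groups set by UMI counts and not by measured vessel size. The gate put *Myh11* and *Rgs5* on different sides, so the differences are a description with no test. Among 780 genes with at least 100 UMIs over both cell types in each library, 66 (8.46%) were at least 2-fold higher in VSMC in all 3 libraries and 9 (1.15%) at least 2-fold lower. The median of all 780 genes lay at a log2 ratio of 0.08 in wild-type, 0.18 in *Mgp*-KO and 0.05 in *Pd*-KO. *Myh11*, the smooth muscle myosin heavy chain that the gate used, stood at 2474, 3038 and 2950 CPM in VSMC and at 76.6, 148 and 53.7 CPM in pericytes.

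Of 23 counted contractile genes 15 were 2-fold higher in VSMC, among them *Myh11*, *Acta2* and *Tagln*, which the gate used. Without these 3 genes, 12 of 20 were higher and none lower, beside 8.46% and 1.15% over all genes, and the median log2 ratio was 1.69 in wild-type, 1.41 in *Mgp*-KO and 1.74 in *Pd*-KO. Some reached the UMI minimum through the VSMC, where they are high: *Actg2* had 10, 0 and 0 UMIs in pericytes and *Pdlim3* 1, 4 and 9. The count is thus a description and no test. *Tpm2* was at 4532, 5472 and 3789 CPM in VSMC against 996, 926 and 587 CPM in pericytes. *Myl9*, the regulatory light chain, was at 4137, 6286 and 3724 CPM against 1303, 1388 and 846 CPM. *Pdlim3*, a scaffold of actin filaments, was at 163, 371 and 148 CPM against 3.06, 74.0 and 16.7 CPM. In each of these the VSMC level was above the pericyte level in all 3 libraries, and *Lmod1*, *Flna*, *Actn1*, *Tpm1*, *Myl6*, *Csrp1*, *Actg2*, *Ppp1r12b* and *Ppp1r14a* passed with them. *Des*, *Cald1*, *Vcl* and *Tln1* were not 2-fold apart in every library, with *Des* at 532, 461 and 674 CPM in VSMC and 687, 777 and 575 CPM in pericytes.

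Regulators were counted against the same shares, 8.46% higher and 1.15% lower. Of 6 counted members of the SRF and myocardin list, *Mef2c* and *Tbx2* were higher in VSMC. *Myocd*, the cofactor myocardin itself, fell short of the UMI minimum but stood at 73.3, 118 and 127 CPM in VSMC and at 3.06, 0 and 1.85 CPM in pericytes. Of 5 counted genes of the Notch list, *Nrip2* and *Nrarp*, the latter a feedback inhibitor induced by Notch, were higher in VSMC. The receptor *Notch3*, found in mural cells at large, was at 675, 629 and 1248 CPM against 444, 759 and 1066 CPM, which puts neither cell type above the other in every library.

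Of 12 counted genes for ion channels and their subunits, 5 were higher in VSMC, beside 8.46% over all genes. Some reached the UMI minimum through the VSMC: *P2rx1* had 4, 2 and 0 UMIs in pericytes and *Kcnab1* had 1, 1 and 10. *P2rx1*, the ATP-gated channel by which sympathetic nerves depolarize arterial muscle, was at 299, 292 and 186 CPM in VSMC and at 12.3, 37.0 and 0 CPM in pericytes. *Kcnab1*, a beta subunit of voltage-gated potassium channels, was at 87.0, 432 and 774 CPM against 3.06, 18.5 and 18.5 CPM, and *Cacnb2*, *Atp2a2* and *Atp2b1* followed. *Kcnj8*, the pore of the ATP-sensitive potassium channel of pericytes, ran the other way, at 19.1, 32.7 and 49.2 CPM in VSMC against 386, 426 and 927 CPM. Its partner *Abcc9* was at 35.1, 26.2 and 133 CPM against 297, 703 and 1121 CPM. Both were under the UMI minimum and were counted in neither direction.

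Of the 12 counted genes of the vasoactive list, *Ramp1* and *Rgs7bp* were higher in VSMC, beside 8.46% over all genes. The receptors *Agtr1a* (47.5, 34.9 and 106 CPM) and *Ednrb* (28.6, 52.4 and 41.2 CPM) were below their pericyte levels of 211, 296 and 681 CPM and of 218, 352 and 997 CPM. Neither receptor reached the UMI minimum in *Mgp*-KO, so they were not among the counted genes. Within the matrix list, 2 of 23 counted genes were higher in VSMC, near the 8.46% over all genes, and 3 were lower, beside 1.15%. *Eln* was at 707, 893 and 788 CPM in VSMC against 264, 92.6 and 74.0 CPM in pericytes, and *Lamb2*, a laminin chain of basement membranes, was also higher. *Timp3*, an inhibitor of metalloproteinases, was at 629, 485 and 538 CPM against 1667, 1907 and 1776 CPM, and *Col5a2* and *Col6a1* were lower as well. The matrix list as a whole had median log2 ratios of -0.45, -0.08 and -0.19. Markers of other cells differed between the cell types compared: fibroblast markers summed to 10316, 2962 and 3891 CPM in pericytes against 4890, 4915 and 3215 CPM in VSMC, and Schwann cell markers to 1048, 0 and 7.40 CPM against 70.1, 6.55 and 20.6 CPM. Their part in the matrix differences was not tested.

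Of the pericyte list 11 genes were counted and none was 2-fold apart in every library, but members such as *Kcnj8* and *Abcc9* fell short of the UMI minimum, which is a sum to which VSMC gave most cells. The counts that follow stand beside 8.46% higher and 1.15% lower over all genes, which in lists this short is at most 2 genes. Of 4 counted BMP and TGFβ genes none passed, of 8 adhesion genes *Cavin3* was higher, and of 8 growth factor genes *Igfbp5* and *Kitl* were higher. Of 8 counted genes of the phenotypic modulation list *S100a4* was higher, and of 20 early response and heat shock genes *Hspb1* was higher. Genes lower in VSMC outside the lists included *Dlc1*, *Rora*, *Marcks*, *Rhob* and *Ppic*, at log2 ratios of -1.04 to -1.11 for *Rhob*, *Ppic* and *Rora* in the library nearest to 0. The genes furthest apart in favor of VSMC after *Myh11* were *Kcnab1*, *Fbxl22*, *Sorbs2* and *P2rx1*, of which *Fbxl22*, a muscle F-box protein, was at 199, 325 and 230 CPM against 9.19, 18.5 and 9.25 CPM. Like *Kcnab1* and *P2rx1*, the others reached the UMI minimum through the VSMC. *Fbxl22* had 3, 1 and 5 UMIs in pericytes and *Sorbs2* 8, 3 and 7, so the order of these genes rests on few counts.

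**Figure D2:**
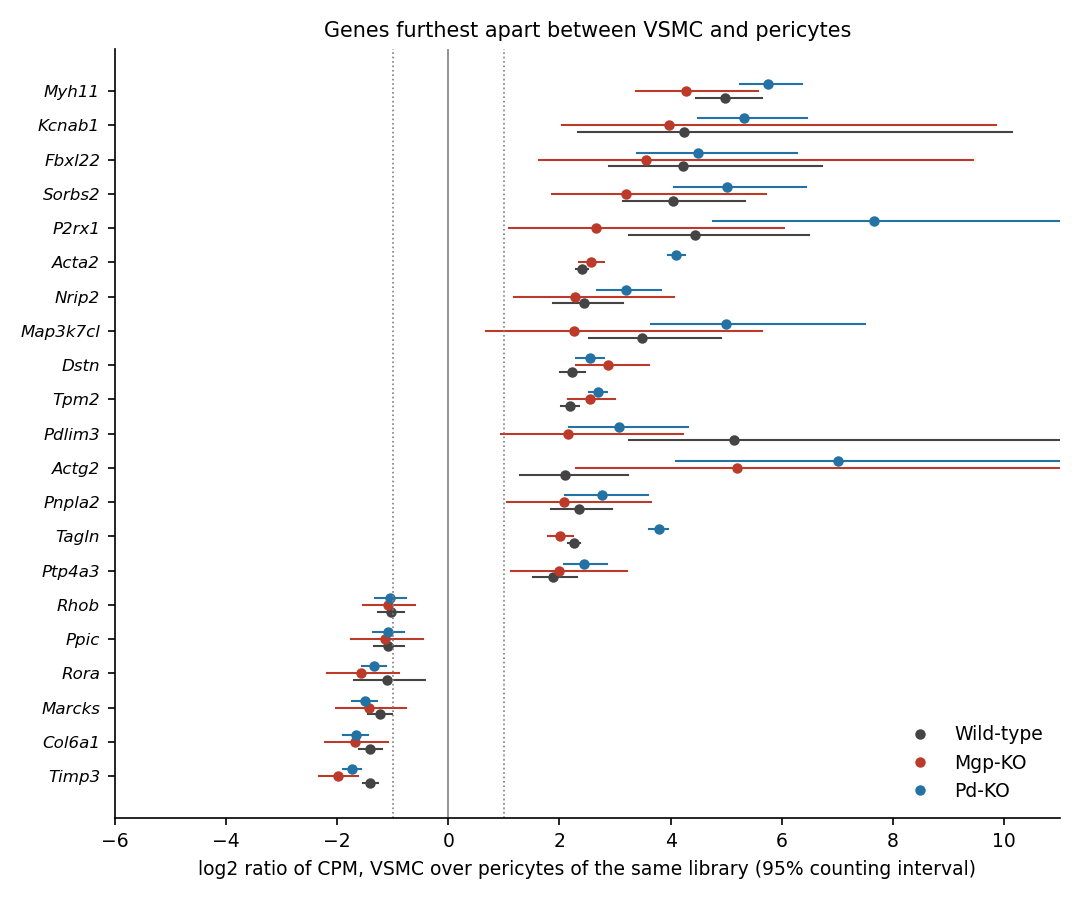
Log2 ratio of CPM, VSMC over pericytes of the same library, for the 15 genes highest and the 6 genes lowest in VSMC by the library nearest to 0; points are libraries, lines 95% counting intervals, dotted lines a 2-fold difference, and lines that reach the right edge run past it. *Myh11*, which the gate used, lies at 4.98, 4.27 and 5.76, and *Timp3* at -1.41, -1.98 and -1.72.

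The promoters of these genes were searched for the CArG box, the binding letters of SRF, in the 250 bases before the start of the gene (RefSeq, GRCm38.p6), on both strands. Only the strict form CCWWWWWWGG was searched, where W is A or T, so boxes with another letter at any place were not found. A match was found in 378 of all 27025 promoters (1.40%), in 13 of 611 promoters of the genes counted between VSMC and pericytes (2.13%), in 3 of 54 promoters of the genes higher in VSMC (5.56%), and in 5 of 27 promoters of the contractile list (18.5%). The 3 promoters of genes higher in VSMC are printed 5′ to 3′ on the strand of the gene, because they join a muscle-biased level to a match, with the CArG box in capitals.
Myl9: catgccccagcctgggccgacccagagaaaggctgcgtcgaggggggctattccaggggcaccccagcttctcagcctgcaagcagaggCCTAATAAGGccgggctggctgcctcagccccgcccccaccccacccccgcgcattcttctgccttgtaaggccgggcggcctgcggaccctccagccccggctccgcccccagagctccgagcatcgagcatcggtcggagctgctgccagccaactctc
Rergl: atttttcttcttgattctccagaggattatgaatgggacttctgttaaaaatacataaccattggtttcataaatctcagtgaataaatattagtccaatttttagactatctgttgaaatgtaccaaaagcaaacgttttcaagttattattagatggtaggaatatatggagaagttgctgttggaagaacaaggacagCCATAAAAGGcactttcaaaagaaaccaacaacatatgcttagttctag
Fbxl22: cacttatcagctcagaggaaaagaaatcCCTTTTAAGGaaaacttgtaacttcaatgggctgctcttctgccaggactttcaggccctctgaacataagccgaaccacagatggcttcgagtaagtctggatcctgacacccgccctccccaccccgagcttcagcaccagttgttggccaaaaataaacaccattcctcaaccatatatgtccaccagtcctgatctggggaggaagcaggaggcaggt
These lie at chr2:156775214-156775463 on the plus strand, chr6:139501910-139502159 on the minus strand and chr9:66514594-66514843 on the minus strand. The box begins 161 bases before the start of *Myl9*, 49 bases before that of *Rergl*, a Ras-like protein, and 222 bases before that of *Fbxl22*. A match is a run of letters and not a measured site. Of the 6 muscle genes of the gate and the markers, *Myh11* and *Tagln* had no promoter at hand. The 4 promoters of *Acta2*, *Tpm2*, *Mylk* and *Lmod1* held no strict match in this window, which does not show that they lack a CArG box.

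*Rgs5*, a regulator of G protein signaling that marks pericytes, was not used to choose the VSMC and divided them. At least 5 *Rgs5* UMIs were found in 43.5% of the wild-type VSMC (39.6 to 47.4), against 13.0% in *Mgp*-KO (7.74 to 20.0) and 66.4% in *Pd*-KO (59.5 to 72.7). Thinned to 3000 UMIs, the shares were 33.8%, 12.7% and 59.0%. In *Pdgfra*-positive cells, which should lack *Rgs5* and had median depths of 15364.5, 7812 and 10188 UMIs, the same count was reached by 1.07%, 0.0528% and 0.766%. At the other end, 44.4% of the wild-type VSMC, against 77.9% in *Mgp*-KO and 20.4% in *Pd*-KO, had at most 1 *Rgs5* UMI. The 3 libraries thus differed in the mix of *Rgs5*-rich and *Rgs5*-poor VSMC beyond counting error, at like depths within a library: the median depth of the rich and the poor cells was 6623 and 6487 UMIs in wild-type, 3344 and 2861 in *Mgp*-KO, and 3951.5 and 3914 in *Pd*-KO.

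The *Rgs5*-rich and *Rgs5*-poor VSMC were compared within each library, a split chosen after the levels of *Rgs5* had been seen. Among 618 genes with at least 100 UMIs in each library, 2 (0.324%) were at least 2-fold higher in the rich cells in all 3 libraries, *Rgs5* itself and the noncoding *Meg3*, and 17 (2.75%) were at least 2-fold lower. The poor and the rich cells held 353164 and 70773 UMIs in *Mgp*-KO, against 179038 and 576778 in *Pd*-KO. In *Mgp*-KO genes thus reached the minimum mainly through the poor cells, so the counts of higher and lower genes are not compared. *Meg3* was at 847, 820 and 851 CPM in the rich cells against 224, 127 and 83.8 CPM in the poor ones. Among the lower genes, *Tpm2* was at 2751, 1794 and 3006 CPM against 6352, 6261 and 6312 CPM. *Eln* was at 441, 452 and 602 CPM against 1012, 1034 and 1285 CPM, and *Sorbs2*, an adaptor at actin anchorage sites, at 138, 113 and 238 CPM against 734, 736 and 1078 CPM. The others were *Pbxip1*, *Ckb*, *Actg2*, *Mob2*, *P2rx1*, *Prss23*, *Palld*, *Dstn*, *Ndufa4*, *Csrp1*, *Rergl*, *Kcnab1*, *Crispld2* and *Fbxl22*. Apart from *Ckb* and *Ndufa4*, each of these 17 genes was also counted as higher in VSMC than in pericytes. Both comparisons hold the *Rgs5*-poor VSMC and set *Rgs5* UMIs as a limit, so this overlap is partly built in and was not tested.

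**Figure D3:**
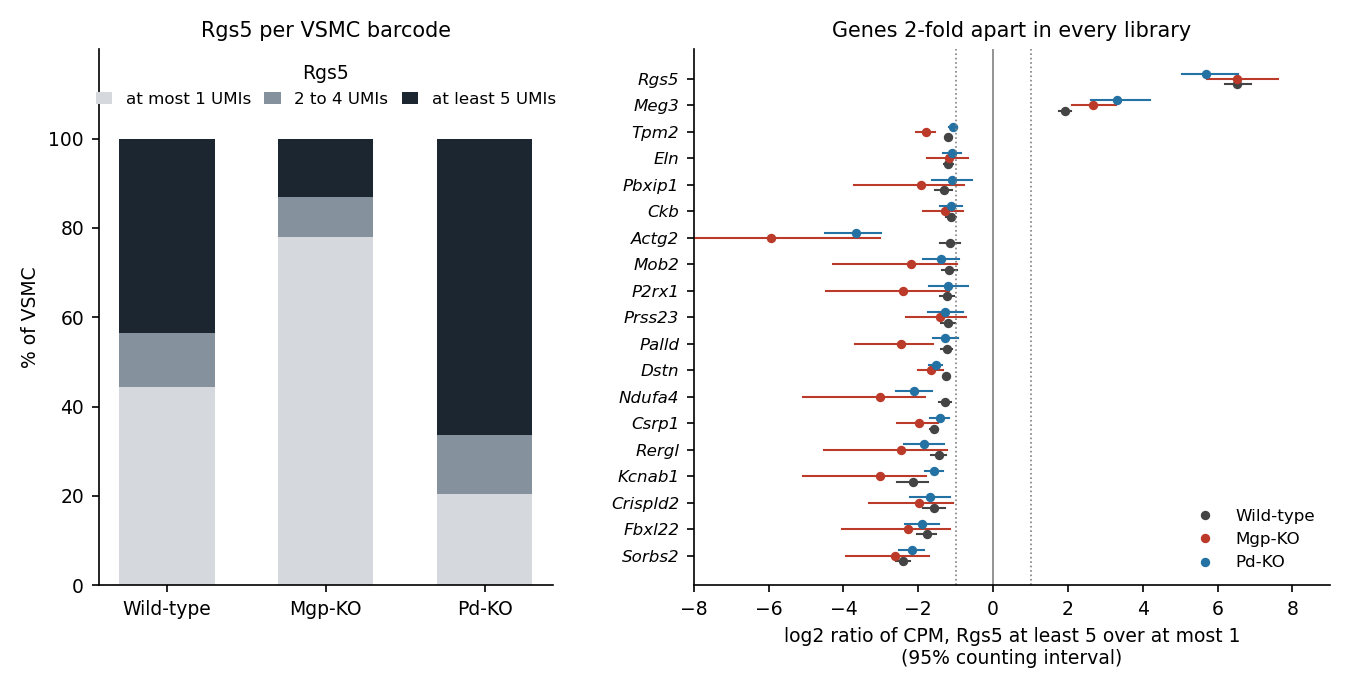
Left, percent of the VSMC of each library by their number of *Rgs5* UMIs; right, log2 ratio of CPM of VSMC with at least 5 over VSMC with at most 1 *Rgs5* UMI for the 19 genes 2-fold apart in every library, with 95% counting intervals, the *Actg2* line of *Mgp*-KO running off the left edge since no UMI was found in its rich cells. *Rgs5*-rich cells are 43.5%, 13.0% and 66.4% of VSMC, and *Sorbs2* lies at -2.41, -2.62 and -2.18.

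*Mgp* (chr6:136872435-136875823, minus strand, GRCm38) is the deleted gene. In wild-type VSMC it stood at 243 CPM (229 to 258, 1096 UMIs). In *Mgp*-KO VSMC it was at 10.9 CPM (3.54 to 25.5), from 5 UMIs in 1 barcode, and in *Pd*-KO VSMC at 37.7 CPM (26.0 to 53.0), from 33 UMIs in 8 barcodes of which 1 held 21. Neither knockout interval reached the wild-type one. The log2 ratio over wild-type was -4.34 in *Mgp*-KO (-6.10 to -3.25) and -2.67 in *Pd*-KO (-3.23 to -2.19).

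*Mgp* was unevenly spread over wild-type VSMC. A UMI was found in 30.4% of them, 10% of the cells held 86.0% of all *Mgp* UMIs, and the highest had 90 UMIs. At least 1 UMI was also found in 22.0% of wild-type Schwann cells, which should lack the gene and were somewhat shallower (median 5627 against 6512 UMIs). At least 5 UMIs were found in 7.72% of wild-type VSMC (5.77 to 10.1) and in 0.917% of Schwann cells (0.0232 to 5.01). The level in wild-type VSMC was 67.7% of that in free RNA, whereas the fibroblast genes *Dcn*, *Col1a1* and *Dpt* reached 14.3%, 28.5% and 35.4% of theirs. *Rgs5*-rich VSMC held more *Mgp* than *Rgs5*-poor ones, at 404 against 100 CPM in wild-type and at 53.7 against 5.59 CPM in *Pd*-KO, where the poor cells had a single UMI. Of the 31 UMIs in the rich *Pd*-KO cells, 21 lay in 1 barcode, without which their level was 17.5 CPM.

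Of the other cells, pericytes ordered the libraries differently. In *Pdgfra*-positive cells *Mgp* was at 411 CPM in wild-type, 0.562 CPM in *Mgp*-KO and 1.46 CPM in *Pd*-KO, and in free RNA at 359, 1.27 and 6.28 CPM. In pericytes it was at 579 CPM in wild-type, at 0 UMIs in *Mgp*-KO, which allows up to 55.5 CPM, and at 925 CPM in *Pd*-KO. Set against wild-type, *Pd*-KO pericytes thus had a log2 ratio of 0.67 (0.43 to 0.92) and *Pd*-KO VSMC one of -2.67. The 500 UMIs of the *Pd*-KO pericytes lay in 20 of 119 barcodes, or 16.8% (10.6 to 24.8), against 18 of 56 in wild-type, or 32.1% (20.3 to 46.0), so the share of pericytes with a UMI did not run the way of the level. With at least 5 UMIs the shares were 15.1% and 17.9%, and in barcodes thinned to 3000 UMIs 19.6% and 28.9% had a UMI, with intervals that overlapped. In endothelial cells *Mgp* was at 844, 0 and 58.1 CPM. *Pd*-KO VSMC thus held more *Mgp* per UMI than *Pdgfra*-positive cells or free RNA of that library and less than its pericytes. The part of free RNA in the wild-type level of VSMC was not tested.

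**Figure D4:**
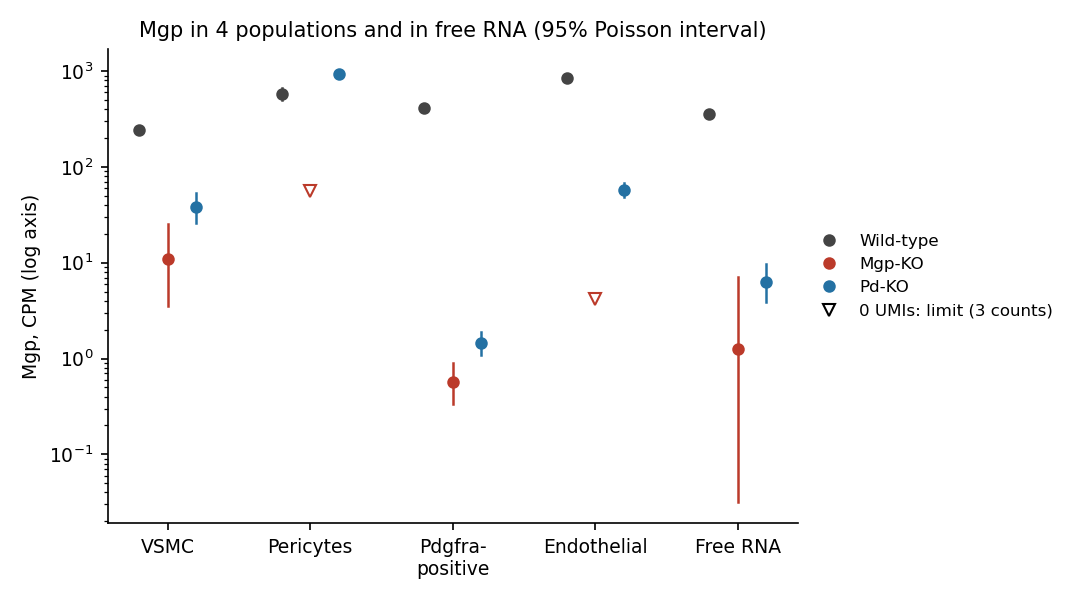
*Mgp* level in CPM on a log axis, in 4 cell types and in free RNA of each library; points carry 95% Poisson intervals, and open triangles mark the limit that 0 UMIs allow (3 counts). VSMC lie at 243, 10.9 and 37.7 CPM, while the *Pd*-KO pericytes at 925 CPM stand above the wild-type pericytes at 579 CPM.

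The knockout VSMC were then compared with wild-type VSMC across genes that reached 100 UMIs in both libraries together, and a gene was counted when it was at least 2-fold apart with a counting interval that left out 0. In *Mgp*-KO, 300 of 5828 genes (5.15%) were higher and 150 (2.57%) lower, and in *Pd*-KO 758 of 6276 (12.1%) were higher and 153 (2.44%) lower. The libraries also differ in the version of the counting software, Cell Ranger 4 for wild-type and 7.1.0 for both knockouts per the file headers, so genotype and processing cannot be told apart. Of the counted genes, 66.7% were higher in *Mgp*-KO and 83.2% in *Pd*-KO. When the trend with the genomic span of genes was taken off, the shares were 54.1% and 50.4%. With the change of *Pdgfra*-positive cells taken off they were 28.9% and 56.0%, with that of pericytes taken off, over the 527 and 1541 genes with enough UMIs in both cell types, 43.1% and 54.7%, and with scaling to the median ratio 63.0% and 75.8%.

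The trend with span was graded. The genes were ordered by span into 4 groups of like size. From the shortest to the longest group, the median log2 ratio was -0.23, -0.02, 0.21 and 0.83 in *Pd*-KO. In *Mgp*-KO it was -0.05, 0.03, 0.04 and 0.25. The 10 highest genes shared by both knockouts were *Ctnna3*, *Cmss1*, *Cacnb2*, *Prkg1*, *Sox5*, *Gphn*, *Pdgfd*, *Ldlrad4*, *Pard3b* and *Klhl29*, whose spans run from 210267 bases for *Pdgfd* to 1573570 bases for *Ctnna3*. *Ctnna3*, a catenin of cell junctions, was at 33.7 CPM in wild-type, 567 CPM in *Mgp*-KO and 1525 CPM in *Pd*-KO VSMC. *Prkg1*, the cGMP-dependent kinase that relaxes smooth muscle, was at 175, 1148 and 3038 CPM. In *Pdgfra*-positive cells the log2 ratio of *Prkg1* was 5.62 in *Mgp*-KO and 5.36 in *Pd*-KO, above its 2.71 and 4.12 in VSMC. *Cmss1* was also higher in the free RNA of both knockouts, at 530 and 1919 CPM against 20.0 CPM.

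Of 31 contractile genes, 3 were higher and none lower in *Mgp*-KO, beside 5.15% and 2.57% over all genes, with a median log2 ratio of 0.39 against 0.06 over all genes. Among VSMC with at most 1 *Rgs5* UMI, which were 44.4% in wild-type and 77.9% in *Mgp*-KO, the median was 0.16. *Cnn1* was at 163 CPM in wild-type and 349 CPM in *Mgp*-KO VSMC, *Actg2* at 138 and 338 CPM, and *Pdlim3* at 163 and 371 CPM. *Cnn1* and *Actg2* are the genes held by a minority of cells. The 6 basal and myoepithelial markers summed to 2.22 CPM in wild-type, 30.6 CPM in *Mgp*-KO and 25.2 CPM in *Pd*-KO VSMC. The part of myoepithelial RNA in these levels was not tested. In *Pd*-KO, 1 of 31 was higher and 1 lower, beside 12.1% and 2.44%, the latter *Smtn*, the actin-associated smoothelin (73.9 and 32.0 CPM), and the list had a median of 0.12 against 0.13 over all genes. With the span trend taken off, the *Pd*-KO median of the list was -0.17. Over 30 of these genes in *Pdgfra*-positive cells, the median was -0.59 in *Mgp*-KO, with 4 higher and 11 lower, and -0.65 in *Pd*-KO, with 2 higher and 10 lower. With the change of those cells taken off, the medians in VSMC were 1.10 and 0.79. Over the 12 genes with enough UMIs in both VSMC and pericytes, the *Mgp*-KO median was 0.36 in VSMC and 0.35 in pericytes. Over 17 such genes, the *Pd*-KO median was 0.11 in VSMC and -0.22 in pericytes. *Myh11*, *Acta2* and *Tagln*, each floored by the gate, had log2 ratios of 0.30, 0.69 and 0.39 in *Mgp*-KO and of 0.25, -0.09 and -0.29 in *Pd*-KO.

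Pericyte genes differed in opposite directions. In *Mgp*-KO VSMC, 5 of 23 genes were lower and 1 higher, beside 2.57% and 5.15% over all genes, with a median log2 ratio of -0.13. *Rgs5* was at 1526 CPM in wild-type and 561 CPM in *Mgp*-KO, at a log2 ratio of -1.44 (-1.63 to -1.26), and *Vtn*, *Steap4*, *Colec11* and *Art3* were lower with it. In *Pd*-KO VSMC, 9 of 24 were higher and none lower, with a median of 0.78, beside 12.1% higher over all genes. *Rgs5* was at 3271 CPM there, *Abcc9* at 133 against 35.1 CPM, and *Kcnj8* at 49.2 against 19.1 CPM. In *Pd*-KO pericytes the median was 0.68, beside 0.78 in VSMC over the same 19 genes, and in *Pd*-KO *Pdgfra*-positive cells it was -0.08. In *Mgp*-KO pericytes the median was 0.23, beside -0.26 in VSMC over the same 12 genes. In *Mgp*-KO *Pdgfra*-positive cells it was -0.76, with 10 of 22 genes lower and 3 higher. The share of *Rgs5*-rich cells among VSMC, given above, was lowest in *Mgp*-KO and highest in *Pd*-KO. Among VSMC with at most 1 *Rgs5* UMI, none of 15 pericyte genes was higher or lower in *Mgp*-KO, with a median of 0.018. In *Pd*-KO, 2 of 14 were then higher and none lower, with a median of 0.47, beside 6.30% higher over all genes of that subset. The opposite directions thus hold for VSMC summed over all cells, and the part of the *Rgs5* mix in them was not tested.

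Of the ion channel genes, 6 of 24 were higher and none lower in *Mgp*-KO, and 14 of 28 were higher and 1 lower in *Pd*-KO, with medians of 0.34 and 0.92, beside 5.15% and 12.1% higher over all genes. Over the 12 genes with enough UMIs in both cell types, the *Pd*-KO median was 1.47 in VSMC and 1.58 in pericytes, and over 21 genes it was 1.37 in VSMC and 1.03 in *Pdgfra*-positive cells. *Cacna1c*, the pore of the L-type calcium channel, was at 73.0 CPM in wild-type, 362 CPM in *Mgp*-KO and 1306 CPM in *Pd*-KO. *Kcnmb1*, the beta subunit of the large calcium-activated potassium channel, was at 26.6, 74.2 and 11.4 CPM, and was counted higher in *Mgp*-KO and lower in *Pd*-KO. *Cacna1c*, with a span of 609179 bases, is among the long genes, and its log2 ratio in *Pdgfra*-positive cells was 3.90 in *Mgp*-KO and 3.13 in *Pd*-KO. With the span trend taken off, 4 of 24 were higher in *Mgp*-KO and 11 of 28 in *Pd*-KO, and the medians were 0.096 and 0.45.

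Early response and heat shock genes differed in opposite directions too. Such genes are known to rise in cells during enzymatic dissociation. In *Mgp*-KO VSMC, 12 of 26 were higher and 1 lower, with a median log2 ratio of 0.73, and in *Pd*-KO VSMC none was higher and 11 were lower, with a median of -0.87. The shares over all genes were 5.15% higher and 2.57% lower in *Mgp*-KO and 12.1% and 2.44% in *Pd*-KO. *Atf3* was at 275 CPM in wild-type, 1615 CPM in *Mgp*-KO and 102 CPM in *Pd*-KO. *Klf2* was at 254, 1166 and 144 CPM, *Fos* at 1519, 4730 and 942 CPM, and *Hspa1a*, whose reads can be shared with its near copy *Hspa1b*, at 715, 1093 and 66.3 CPM. In *Pdgfra*-positive cells the list had a median of 0.17 in *Mgp*-KO, with 1 gene higher and 1 lower, and of -1.38 in *Pd*-KO, with 19 lower. In pericytes, over the 18 genes with enough UMIs there, the median was 1.08 in *Mgp*-KO, beside 0.73 for the same genes in VSMC. Over 21 such genes, the *Pd*-KO median was -1.49 in pericytes and -0.90 in VSMC.

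Matrix genes gave 3 higher and 2 lower of 52 in *Mgp*-KO, with a median of 0.26, near the shares over all genes of 5.15% and 2.57%, and 2 higher and 8 lower of 52 in *Pd*-KO, with a median of 0.03, beside 12.1% and 2.44%. With the span trend taken off, the medians were 0.028 in *Mgp*-KO and -0.50 in *Pd*-KO, where none was then higher and 9 were lower. With the change of *Pdgfra*-positive cells taken off, they were 0.17 and -0.49. Among VSMC with at most 1 *Rgs5* UMI, they were 0.17 and -0.35. *Postn*, the matricellular protein periostin, was at 777 CPM in wild-type, 301 CPM in *Mgp*-KO and 340 CPM in *Pd*-KO VSMC, and *Col15a1* at 54.2, 8.73 and 11.4 CPM. Both were lower in both knockouts. *Eln* was at 707, 893 and 788 CPM and was not counted in either. The 3 higher in *Mgp*-KO were *Thbs1*, *Efemp1* and *Adamts4*. *Dcn*, *Lum* and *Mmp2* were lower in *Pd*-KO, where the fibroblast marker list as a whole summed to 3215 CPM in VSMC against 4890 CPM in wild-type.

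Genes of phenotypic modulation, the loss of contractile for fibroblast-like features, were 5 higher and 1 lower of 19 in *Mgp*-KO (median 0.50) and none higher and 8 lower in *Pd*-KO (median -0.78), beside shares over all genes of 5.15% and 2.57% in *Mgp*-KO and of 12.1% and 2.44% in *Pd*-KO. *Klf4*, a repressor of the contractile program, was at 105, 282 and 56.0 CPM, *Ly6a* at 155, 402 and 64.1 CPM, and *Lgals3*, a galectin, at 52.4, 116 and 25.2 CPM. The *Mgp*-KO level of these 3 genes was the highest and the *Pd*-KO level the lowest. In *Pdgfra*-positive cells the median over the 19 genes was -0.06 in *Mgp*-KO and -0.12 in *Pd*-KO. Over the 9 genes with enough UMIs in both VSMC and pericytes, the *Mgp*-KO median was -0.03 in VSMC and -0.28 in pericytes. Over 12 such genes, the *Pd*-KO median was -0.33 in VSMC and -0.26 in pericytes. Several list members (*Ly6a*, *C3*, *Cd34*, *Dcn*, *Lum*) are expressed by fibroblasts. Of 7 counted fibroblast markers, *Pi16* and *Clec3b* were higher in *Mgp*-KO VSMC (62.6 and 192 CPM in wild-type, 297 and 413 CPM in *Mgp*-KO) and none was lower, while *Col3a1* went from 2535 to 1921 CPM and the list had a median of -0.15 and sums of 4890 and 4915 CPM. In *Pd*-KO 3 of 7 were lower, beside 2.44% over all genes, with a median of -0.82. The part of fibroblast RNA was not tested.

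The remaining lists were counted as follows in *Mgp*-KO and *Pd*-KO, beside shares over all genes of 5.15% higher and 2.57% lower in *Mgp*-KO and of 12.1% higher and 2.44% lower in *Pd*-KO. With lists of this size, a count of 1 or 2 genes in *Mgp*-KO is near those shares. Of the vasoactive list 2 of 30 were higher and 1 lower, then 8 of 30 higher and 2 lower, among the last *Npy1r*, the neuropeptide Y receptor, at 359 CPM in wild-type and 161 CPM in *Pd*-KO. The *Pd*-KO median of this list was 0.52, and -0.092 with the span trend taken off. Of the SRF and myocardin list 1 of 14 was higher and 1 lower, then 5 of 16 higher, and *Myocd* was counted in neither. The *Pd*-KO median of this list was 0.79, and -0.25 with the change of *Pdgfra*-positive cells taken off. Of the Notch list 1 of 12 and 2 of 12 were higher, in each case with the long gene *Maml2*. Of the BMP and TGFβ list 1 of 29 was higher (*Fst*, an antagonist of activin, at 47.1 and 93.9 CPM, at the edge of the 2-fold limit and not counted with scaling to the median ratio), then 6 of 31 higher and 1 lower. Of the mineralization list *Mgp* alone was lower of 8 in *Mgp*-KO, and of 9 in *Pd*-KO *Mgp* and *Vkorc1* were lower and *Ank* higher. Adhesion genes were higher in 2 and 5 of 21, with *Dmd* (dystrophin, 157, 709 and 1497 CPM) in both, and growth factors gave 4 higher and 3 lower of 28, then 3 higher and 5 lower of 27.

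The lowest genes common to both knockouts were *Mgp*, *Car3*, *Glycam1*, *Ccl19* (ENSMUSG00000071005, among several gene copies of that symbol), *Nr1d1*, *Dbp*, *Gm42418*, *Col15a1*, *Postn* and *Plin1*. *Car3* and *Plin1* are adipocyte genes, and *Car3* was at 275 CPM in wild-type, 6.55 CPM in *Mgp*-KO and 10.3 CPM in *Pd*-KO VSMC. *Glycam1*, a mucin of lymph node venules and mammary epithelium, was at 114 CPM in wild-type VSMC and at 404 CPM in its free RNA, and had no UMI in *Mgp*-KO VSMC. *Dbp* and *Nr1d1* belong to the circadian clock, with *Nr1d1* at 56.6, 2.18 and 6.86 CPM, and in *Pdgfra*-positive cells at log2 ratios of -3.93 in *Mgp*-KO and -4.12 in *Pd*-KO. *Gm42418*, which overlaps ribosomal RNA, was at 32895, 3671 and 11270 CPM in VSMC. In *Pdgfra*-positive cells *Postn* had log2 ratios of -0.20 and -0.12 and *Dbp* of -0.59 and -0.01, so that these were less far apart there than in VSMC.

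**Figure D5:**
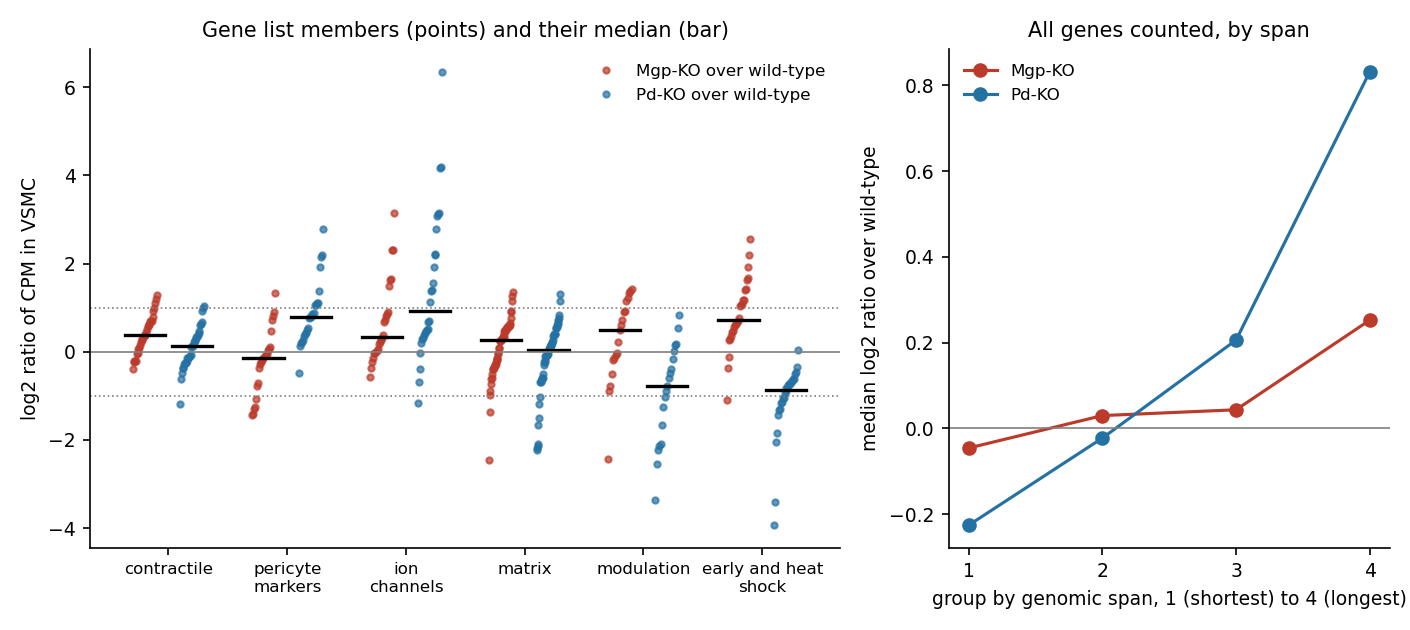
Left, log2 ratio of CPM over wild-type in VSMC for each counted member of 6 gene lists (points) and the list median (bar), for *Mgp*-KO and *Pd*-KO; right, the median log2 ratio over all counted genes in 4 groups of like size by genomic span. The early response and heat shock list lies at a median of 0.73 in *Mgp*-KO and -0.87 in *Pd*-KO, and the longest genes of *Pd*-KO at 0.83.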

How the data were processed

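The deposited matrices hold raw UMI counts per gene and barcode, unfiltered and not normalized, for 32285 genes. The authors made them with Cell Ranger from 10x Genomics 3′ libraries: the paper and the labels name version 6.1.1, whereas per the file headers the wild-type library was counted with version 4 and both knockout libraries with 7.1.0. The paper names mm10 and the labels GRCm39, and the paper states default parameters. By default version 7.1.0 counts intronic reads and versions 4 and 6.1.1 do not, but the headers do not show the setting used. The libraries hold 184102026, 93212243 and 83942865 UMIs.

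Barcodes of at least 1000 UMIs and at most 10% mitochondrial UMIs numbered 11350 for wild-type, 13086 for *Mgp*-KO and 9227 for *Pd*-KO. Between 37 and 42 filtered barcode sequences were shared by a pair of libraries. The paper's filter has the same mitochondrial limit and a lower minimum of transcripts, and a minimum of 500 UMIs was run as an alternative. No doublet caller was run, since the gate leaves out barcodes with transcripts of *Pdgfra*, *Epcam*, *Pecam1* or *Krt14*, which does not remove doublets of VSMC. Counts were summed per cell type and library (Python 3.11.15, numpy 2.4.6, scipy 1.17.1, pandas 2.3.3, matplotlib 3.10.9). Intervals at 95% are Clopper-Pearson for shares, Poisson for levels and, for log2 ratios, binomial given the summed UMIs of both sides. For the ratio itself 0.5 counts were added to each sum. UMIs are counted molecules, but cells and molecules of 1 library are not replicates, so no p-value is given. A floor of 3 counts was used for genes at 0.

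Named genes of the comparison with pericytes are the 15 furthest apart on each side by the library nearest to 0, among genes with at least 100 UMIs over both cell types and 50 CPM in the higher one in each library. Those of each knockout are the 10 highest and 10 lowest by the interval bound nearest to 0, among counted genes with at least 50 CPM in either library and without mitochondrial genes. The shared ones are 10 on each side, ranked by whichever knockout ratio lay closer to 0. Gate genes, *Mgp* and list members were named beside these. The members, gene lists and rules were chosen with earlier results of these data known. Genomic spans came from GENCODE M21 (GRCm38), with which 99.6% of genes were matched, and promoters from RefSeq. The steps were tested on simulated data. Alternatives covered the UMI minimum, thinning, stricter gates, scaling, weighting cells equally, leaving out barcodes above the 95th percentile of UMIs, leaving out each library, the span trend (for each gene, the median of 200 genes of like span), and subtraction of the change in *Pdgfra*-positive cells (at least 3 *Pdgfra* UMIs) or pericytes. Results for 2 genes are not reported here.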

Additional observations from a re-analysis of the deposited data

Results flagged for a closer look

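Between *Pd*-KO and wild-type, 2 results ran in opposite directions in VSMC and in pericytes. The difference between the cell types was not tested, since there was 1 library per genotype.

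In VSMC, the log2 ratio of *Mgp* between *Pd*-KO and wild-type was -2.67 (-3.23 to -2.19), whereas in pericytes it was 0.67 (0.43 to 0.92). This holds for the level over summed cells. The share of cells with an *Mgp* UMI did not run in opposite directions, at 30.4% and 3.79% of VSMC and 32.1% and 16.8% of pericytes, where 20 *Pd*-KO barcodes held all 500 UMIs and the intervals of the pericyte shares overlapped.

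The share of VSMC among filtered barcodes in *Pd*-KO was 0.409 times that in wild-type (0.348 to 0.478), whereas that of pericytes was 2.61 times as high (1.89 to 3.66). After thinning to 3000 UMIs the pericyte shares were 0.939% in wild-type and 1.13% in *Pd*-KO. With a minimum of 500 UMIs the ratio was 1.23 for VSMC and 7.44 for pericytes, so the shares then no longer ran in opposite directions, and the VSMC intervals overlapped.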

How the results depend on the processing

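No paired analysis was possible because each genotype had 1 library. Depth limits the *Mgp*-KO values most, with 131 VSMC and 17 pericytes. None of the 30 genes named between VSMC and pericytes changed direction under the alternatives run, 7 values fell short of a 2-fold difference, and 4 rose past it. Of the values of genes named in *Mgp*-KO, 283 kept direction and side of the threshold, 17 reversed, 9 fell short of it and 3 moved otherwise, against 336, 25, 7 and 2 in *Pd*-KO. Leaving out a library gave 70 to 157 genes higher and 12 to 82 lower in VSMC than in pericytes, with the highest counts of both without *Mgp*-KO, where 2642 genes were counted, against 66 and 9 with all libraries. The subset of VSMC with at most 1 *Rgs5* UMI was an alternative chosen after seeing the data. Taking off the change of *Pdgfra*-positive cells or pericytes leaves a difference between cell types, so a reversed sign means that the ratio in those cells was larger in the same direction. This does not hold where a cell type had 0 UMIs and the sign rests on the count added: *Mgp* in *Mgp*-KO with pericytes taken off, and *Glycam1* in *Mgp*-KO and *Gm10260* in *Pd*-KO with *Pdgfra*-positive cells taken off. For the other changes below, the cause was not tested.

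With barcodes of at least 500 UMIs, wild-type VSMC were 1.82% and pericytes 0.172%, since this adds 23526 wild-type barcodes. *Pd*-KO VSMC were then 2.25%, so that the wild-type share was no longer the higher one. With doubled thresholds VSMC were 4.88%, 0.718% and 1.72% in wild-type, *Mgp*-KO and *Pd*-KO. Thinned to 3000 UMIs, *Mgp*-KO and *Pd*-KO VSMC were 0.589% and 1.97%, wild-type pericytes 0.939%, and wild-type VSMC 6.42 per pericyte. Without the exclusions, pericytes were 0.978% in wild-type and 1.56% in *Pd*-KO, with 5.72 VSMC per pericyte in wild-type.

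Between VSMC and pericytes, a minimum of 50 UMIs gave 110 genes higher and 21 lower, 200 UMIs gave 35 and 3, doubled thresholds gave 5 lower, and pericytes without exclusions 17 lower. In *Mgp*-KO, 50 UMIs gave 524 higher, 200 UMIs 131 higher and 76 lower, 1 UMI 1001 and 245, the span trend taken off 199 higher, *Pdgfra*-positive cells taken off 513 lower, pericytes taken off 22 and 29 of 527 genes (4.17% and 5.50%, beside 5.15% and 2.57%), and at most 1 *Rgs5* UMI 126 and 58 of 3340. In *Pd*-KO, 50 UMIs gave 1230 higher and 235 lower, 200 UMIs 392 and 95, 1 UMI 2162 and 300, the span trend taken off 209 higher, *Pdgfra*-positive cells taken off 216 higher, pericytes taken off 41 and 34 of 1541 genes (2.66% and 2.21%, beside 12.1% and 2.44%), and at most 1 *Rgs5* UMI 198 higher of 3144.

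The *Mgp* log2 ratio in *Mgp*-KO was -7.06 with doubled thresholds, -7.47 thinned and -6.15 with at most 1 *Rgs5* UMI. Each of these rests on 0 *Mgp* UMIs and the count added, and 3 counts over the library allow -4.47, -4.88 and -3.56. In *Pd*-KO it was -3.58 with at most 1 *Rgs5* UMI, from a single UMI. With at most 1 *Rgs5* UMI the contractile median in *Mgp*-KO was 0.16. With the span trend taken off, the *Pd*-KO medians were -0.17 for contractile, 0.45 for ion channel and -0.092 for vasoactive genes.

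With *Pdgfra*-positive cells taken off, the *Mgp*-KO log2 ratios were 5.13 for *Mgp*, -2.91 for *Prkg1*, -1.97 for *Sox5*, -1.01 for *Gphn*, -0.34 for *Pdgfd*, -1.51 for *Ldlrad4*, -1.61 for *Pard3b*, -1.87 for *Klhl29*, 1.11 for *Plin1*, 2.46 for *Rgs5*, 0.14 for *Lars2*, 0.82 for *Gm42418*, 1.01 for *AY036118* and 3.05 for *Glycam1*, and the medians 1.10 for contractile, 0.40 for pericyte and -0.24 for ion channel genes. The *Pd*-KO log2 ratios were 5.46 for *Mgp*, -0.71 for *Sox5*, -1.25 for *Prkg1*, -0.15 for *B3galt1*, -0.47 for *Klhl29*, -0.48 for *Pard3b*, -0.062 for *Gphn*, -0.80 for *Ldlrad4*, -0.56 for *Pdgfd*, 0.42 for *Plin1*, 0.87 for *Gm42418*, 1.19 for *Nr1d1*, 0.62 for *Apoe*, 0.16 for *Hspa1a*, 0.46 for *Glycam1* and 0.60 for *Gm10260*, and the medians 0.79 for contractile, -0.25 for SRF and myocardin, 0.41 for ion channel and 0.38 for early response and heat shock genes.

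With pericytes taken off, the *Mgp*-KO log2 ratios were 1.63 for *Mgp*, -2.47 for *Prkg1* and 0.27 for *AY036118*. The *Pd*-KO ones were -3.34 for *Mgp*, -0.63 for *Kcnq5*, -0.0012 for *Sox5*, -1.25 for *Prkg1*, -0.37 for *Pard3b*, -0.0045 for *Gphn*, -0.40 for *Ldlrad4*, 0.55 for *Gm42418*, 3.09 for *Apoe* and 1.62 for *Hspa1b*.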

Other observations

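A mouse cell with *Xist* but without a transcript of *Ddx3y*, *Eif2s3y*, *Kdm5d* or *Uty* was called female, and one with the reverse pattern male. Among called VSMC, 45.7% were female in wild-type, 78.0% in *Mgp*-KO and 58.0% in *Pd*-KO. Over all called filtered barcodes the shares were 50.2%, 80.7% and 45.4%. The called VSMC numbered few in *Mgp*-KO, 46 female and 13 male.

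*Fabp4*, highest in the VSMC of wild-type, was ordered otherwise in other vessel cells. Pericytes held 12759 CPM in wild-type, 17307 CPM in *Mgp*-KO and 10787 CPM in *Pd*-KO, and endothelial cells 21203, 33436 and 28583 CPM.

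*Camk1d*, a calcium-regulated kinase, was at 2.66 CPM in wild-type and 286 CPM in *Pd*-KO VSMC, and in free RNA at 5.22 and 4465 CPM. *Gm10260*, a predicted gene, was at 66.6 CPM in wild-type VSMC and had no UMI in *Pd*-KO VSMC or in the free RNA of that library. *Lars2* and *AY036118* were lower in *Mgp*-KO VSMC at log2 ratios of -2.56 and -3.40, and in *Pdgfra*-positive cells at -2.70 and -4.41.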
